A study of Mus musculus with 6 samples.

Results

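The *Hox* genes were taken as every gene of the 4 clusters *HoxA* to *HoxD* whose symbol is *Hox* followed by the cluster letter and a number, which gave 39 of the 55401 genes in the count tables. They were followed in subcutaneous white adipose tissue (scWAT) of 8-week-old male mice kept at 22 °C. The 3 control mice (YT-FF) carried loxP-flanked (floxed) alleles of *Yap* and *Taz* (*Wwtr1*) and no Cre, although their labels read wild type. The 3 YT-AKO mice carried the same floxed alleles (*Yap* fl/fl, *Taz* fl/fl) together with *Adipoq* Cre, whose promoter is active in mature adipocytes, so that the progenitors, blood vessels and immune cells of the depot were not targeted. Each library was made from whole tissue and not from sorted adipocytes. In such bulk samples fewer cells of a type and less RNA per cell cannot be told apart.

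*Hox* genes encode homeodomain transcription factors that give cells along the body axis their positional identity. Within a cluster the genes lie in the order in which they are used along the axis, and genes of the same number in different clusters form a paralogue group, low numbers being anterior and high numbers posterior. Adult adipocytes and their progenitors keep part of this code, so that fat depots of different body regions can be told apart by the *Hox* genes they transcribe, and *Hoxc9* and *Hoxc10* are widely used as markers of subcutaneous fat. HOX proteins bind DNA through the homeodomain, often together with PBX and MEIS cofactors, and Polycomb and Trithorax complexes keep the clusters silent or active in adult cells.

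The results below turn on *Hoxc9* and *Hoxc10*, and counts of near-identical genes can be mixed up, so the coding sequences of their homeoboxes are shown beside those of 3 paralogues, *Hoxb9*, *Hoxa10* and *Hoxd10*. Each is 180 bases long, was read from GENCODE vM21 transcripts on GRCm38 (mm10) and lies within 1 exon, the third of 3 for *Hoxc9* and the second of 2 for the other genes. Capitals mark bases that differ from *Hoxc9* in group 9 and from *Hoxc10* in group 10.
Hoxc9: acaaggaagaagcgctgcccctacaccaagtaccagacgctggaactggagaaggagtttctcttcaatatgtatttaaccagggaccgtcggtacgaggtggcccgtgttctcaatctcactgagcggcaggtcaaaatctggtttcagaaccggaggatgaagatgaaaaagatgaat
Hoxb9: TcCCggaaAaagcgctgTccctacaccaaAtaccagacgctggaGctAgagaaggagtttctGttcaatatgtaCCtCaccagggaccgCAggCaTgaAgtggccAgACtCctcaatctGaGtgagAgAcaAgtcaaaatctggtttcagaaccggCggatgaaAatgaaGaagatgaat
Hoxc10: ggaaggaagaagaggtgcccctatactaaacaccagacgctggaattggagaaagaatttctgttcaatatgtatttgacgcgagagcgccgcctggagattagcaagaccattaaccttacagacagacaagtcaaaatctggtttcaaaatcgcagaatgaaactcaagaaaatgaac
Hoxa10: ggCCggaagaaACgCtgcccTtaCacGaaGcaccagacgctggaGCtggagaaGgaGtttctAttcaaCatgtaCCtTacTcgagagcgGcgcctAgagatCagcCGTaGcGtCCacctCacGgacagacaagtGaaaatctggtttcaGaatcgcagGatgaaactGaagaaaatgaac
Hoxd10: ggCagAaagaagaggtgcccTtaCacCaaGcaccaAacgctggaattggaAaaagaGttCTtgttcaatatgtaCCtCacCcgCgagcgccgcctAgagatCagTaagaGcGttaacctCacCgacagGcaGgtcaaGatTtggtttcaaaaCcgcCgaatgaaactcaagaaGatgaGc
The *Hoxc9* homeobox lies at chr15:102983930-102984109 (+) and that of *Hoxc10* at chr15:102970848-102971027 (+). The paralogues lie at chr11:96274659-96274838 (+, *Hoxb9*), chr6:52232554-52232733 (-, *Hoxa10*) and chr2:74694141-74694320 (+, *Hoxd10*). Identity to *Hoxc9* was 83.9% for *Hoxb9*, and identity to *Hoxc10* was 80.6% for *Hoxa10* and 82.8% for *Hoxd10*. *Hoxc9* and *Hoxc10* were 71.7% identical to each other in this stretch. Of the 2364 words of 50 bases in the *Hoxc9* transcripts, 3 occurred in another *Hox* gene. Of the 1860 such words of *Hoxc10*, 119 did, all in *Hoxc5*, with which it shares an exon in the annotation.

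The total counts ran from 17740987 to 21838493 fragments per library, and 3 counts, taken as the floor, were worth 0.137 to 0.169 CPM (counts scaled to a common library size). *Yap1* had counts of 1622, 1300 and 1295 in YT-FF 1, 2 and 3 and 649, 492 and 529 in YT-AKO 1, 2 and 3. *Wwtr1* had 1818, 1729 and 1918 against 3015, 2253 and 2716, so its total was higher in every library labelled YT-AKO. The counts are per gene and do not show the deleted exons apart, so this total is no check of the deletion, and directions below are those of the labels. Scaling factors computed by the trimmed mean of M values (TMM) were 1.15, 1.16 and 1.07 in YT-FF 1, 2 and 3. They were 0.954, 0.777 and 0.955 in YT-AKO 1, 2 and 3. All YT-AKO factors were thus below all control factors, with YT-AKO 2 the lowest.

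In control scWAT the *HoxC* cluster was the most transcribed. Levels were compared per length, as TPM (transcripts scaled to a common sum per library), from counts divided by the exon length of each gene. *HoxC* genes held 49.996%, 51.4% and 53.8% of the summed *Hox* level in YT-FF 1, 2 and 3 (51.7% ± 1.91, SD, n = 3). *HoxA* held 21.4% ± 0.499, *HoxB* 15.7% ± 0.389 and *HoxD* 11.2% ± 1.46. The ranges of the 4 clusters did not overlap. Without the *Hox* genes that share over 10% of their exon bases with another gene, *HoxA* was at 14.2% and *HoxB* at 16.8%, so the order of these clusters turned, while *HoxC* stayed the highest at 57.7%. The summed level of all *Hox* genes was 438.1, 413.8 and 368.5 TPM.

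*Hoxc8* had the highest level, with 77.4, 76.9 and 78.6 TPM in YT-FF 1, 2 and 3 (77.6 ± 0.839, SD, n = 3). *Hoxc6* followed with 53.9, 48.8 and 41.0 TPM (47.9 ± 6.51). *Hoxc10* was the third, with 33.6, 38.0 and 36.8 TPM (36.1 ± 2.29). Each of these 3 genes was above the next in rank in every YT-FF library, whereas the ranges of neighbouring genes overlapped from rank 4 to rank 14. *Hoxd8* had 31.7, 24.97 and 21.4 TPM (26.0 ± 5.24) and was the highest *HoxD* gene. *Hoxc9* had 26.4, 21.2 and 22.3 TPM (23.3 ± 2.71), within the range of *Hoxd8*.

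The highest gene of *HoxA* was *Hoxa7*, with 22.04, 18.3 and 21.1 TPM (20.5 ± 1.96). The exons of *Hoxa7* share 20.4% of their bases with the antisense gene *Hoxaas3*, and fragments in that stretch were not counted, so its level may be too low. The highest gene of *HoxB* was *Hoxb6*, with 21.0, 15.99 and 12.7 TPM (16.6 ± 4.203). *Hoxa5*, a known regulator of adipose and lung development, was at 17.6 ± 3.51 TPM, and its group 5 neighbour in *HoxC*, *Hoxc5*, at 15.6 ± 2.69 TPM. *Hoxd9*, *Hoxb7*, *Hoxb4*, *Hoxa9* and *Hoxa10* followed between 12.1 and 13.97 TPM, with no order between them beyond their spread. The remaining 13 of the 27 genes with enough counts to be tested ranged from 0.781 TPM (*Hoxb2*) to 9.24 TPM (*Hoxb8*).

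**Figure D1:**
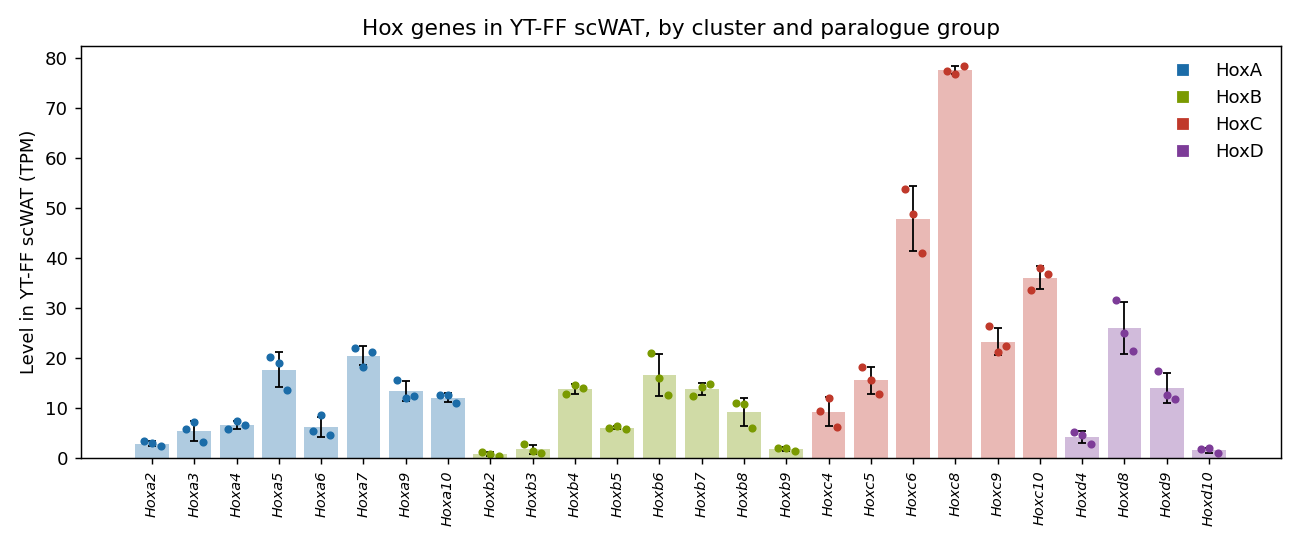
Levels of 26 of the 27 tested *Hox* genes in YT-FF scWAT, in TPM, ordered by cluster and, within a cluster, by paralogue group. Bars give the mean of 3 libraries, error bars the SD and points the libraries in the order 1, 2, 3, and *Hoxc8* at 77.6 TPM, *Hoxc6* at 47.9 TPM and *Hoxc10* at 36.1 TPM stand above the other genes.

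By paralogue group, the largest shares were those of groups 8, 6, 9 and 10. Group 8 held 27.8% ± 0.831 of the summed *Hox* level of YT-FF libraries, group 6 17.3% ± 1.31, group 9 12.9% ± 1.23 and group 10 12.3% ± 1.19. Groups 5, 7 and 4 held 9.62% ± 0.730, 8.48% ± 1.09 and 8.31% ± 0.914. The anterior groups 2 and 3 held 0.893% ± 0.149 and 1.76% ± 0.497. Of the genes of these 2 groups *Hoxa3* had the highest level, at 5.40 ± 1.96 TPM.

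The code ended after group 10. Of the 30 members in groups 1 to 10, 27 had enough counts to be tested, whereas none of the 9 members in groups 11 to 13 had more than 5 counts in any library. *Hoxb13*, *Hoxc12*, *Hoxc13*, *Hoxd1*, *Hoxd11*, *Hoxd12* and *Hoxd13* had 0 counts in all 6 libraries. *Hoxc11*, the neighbour of *Hoxc10*, had counts of 2, 2 and 5 in YT-FF and 3, 2 and 4 in YT-AKO. *Hoxa11* had 4 counts and *Hoxa13* 1 count, each in 1 YT-AKO library. *Hoxb1* had 2 counts in 1 YT-AKO library, and *Hoxd3*, which shares 62.8% of its exon bases with other genes, had 0 to 5 counts. Fragments that overlapped more than 1 gene were not counted, so the level of *Hoxd3* is uncertain. Groups 11 to 13 were not detectable at this depth, apart from these few counts, in either genotype. The boundary after group 10 lay at the same place in the libraries labelled YT-AKO.

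The comparison of YT-AKO with YT-FF asked whether this positional code changes when *Yap* and *Taz* are targeted in adipocytes. In edgeR's quasi-likelihood test, *Hoxc9* and *Hoxc10* were higher in YT-AKO at an adjusted p under 0.05, and no *Hox* gene was lower. These 2 of 27 tested genes compare with 12.6% of the 16807 genes tested that were called higher at this threshold, and the 0 of 27 with 9.01% called lower, so neither count was above the background. At an unadjusted p under 0.05, 6 *Hox* genes were higher, against 22.2% of all tested genes, and 1, *Hoxb3*, was lower, against 18.6%, and DESeq2 and limma-voom also called 0 lower. At an adjusted p under 0.01 with a log2 change of more than 1 in size, 0 of 27 *Hox* genes and 0.125% of all genes passed.

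*Hoxc9* (ENSMUSG00000036139.6, chr15:102976439-102985099, + strand, mm10) had counts of 391, 297 and 292 in YT-FF 1, 2 and 3 and 437, 949 and 748 in YT-AKO 1, 2 and 3. After TMM scaling these were 16.7, 13.0 and 15.04 CPM against 25.4, 56.0 and 44.2 CPM. The groups did not overlap, and YT-AKO 1 lay closest to the controls. The log2 fold change was 1.49 (SE 0.288, n = 3 per group, edgeR adjusted p = 0.0204), a fold of 2.81. In TPM it was the only tested *Hox* gene whose YT-AKO libraries, at 29.1, 40.4 and 49.5, were all above the controls, where 7.52% of all tested genes were.

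*Hoxc10* (ENSMUSG00000022484.7, chr15:102966796-102971893, + strand) had counts of 391, 418 and 378 in YT-FF and 606, 561 and 728 in YT-AKO. These were 16.7, 18.4 and 19.5 CPM against 35.2, 33.1 and 43.0 CPM, again without overlap. The log2 fold change was 1.03 (SE 0.169, edgeR adjusted p = 0.0177), a fold of 2.04. In TPM the groups overlapped, since YT-AKO 2 was at 30.4 TPM and the lowest control at 33.6 TPM. The exons of *Hoxc10* share 166 bases, 8.70% of their length, with *Hoxc5*, and fragments in that stretch were not counted for either gene.

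The calls depended on which control libraries were kept. Without YT-FF 1 no *Hox* gene and 0 of all genes were called, and without YT-FF 2 no *Hox* gene and 2 of all genes. Without YT-FF 3 *Hoxc10* alone was called, where 704 of 17458 genes were called higher, and the edgeR adjusted p of *Hoxc9* was 0.0566. Without YT-AKO 1, 4 *Hox* genes were called higher, namely *Hoxc6*, *Hoxc8*, *Hoxc9* and *Hoxc10*, where 2226 of 17514 genes were. Without YT-AKO 2 these were *Hoxa10*, *Hoxc6*, *Hoxc9* and *Hoxc10*, where 2925 of 17350 genes were called higher. Over these fits the log2 fold change of *Hoxc9* ran from 1.22 to 1.76 and that of *Hoxc10* from 0.92 to 1.11. YT-AKO libraries had lower counts of long genes, with a Spearman correlation of -0.376 between log2 fold change and exon length across all tested genes, which are not independent replicates, and -0.148 across the 27 *Hox* genes. With gene length corrected in each library the log2 fold changes were 1.29 for *Hoxc9* (edgeR adjusted p = 0.0320) and 0.74 for *Hoxc10* (edgeR adjusted p = 0.0392). With library totals alone as scaling they were 1.13 (edgeR adjusted p = 0.0259) and 0.72 (edgeR adjusted p = 0.0441).

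**Figure D2:**
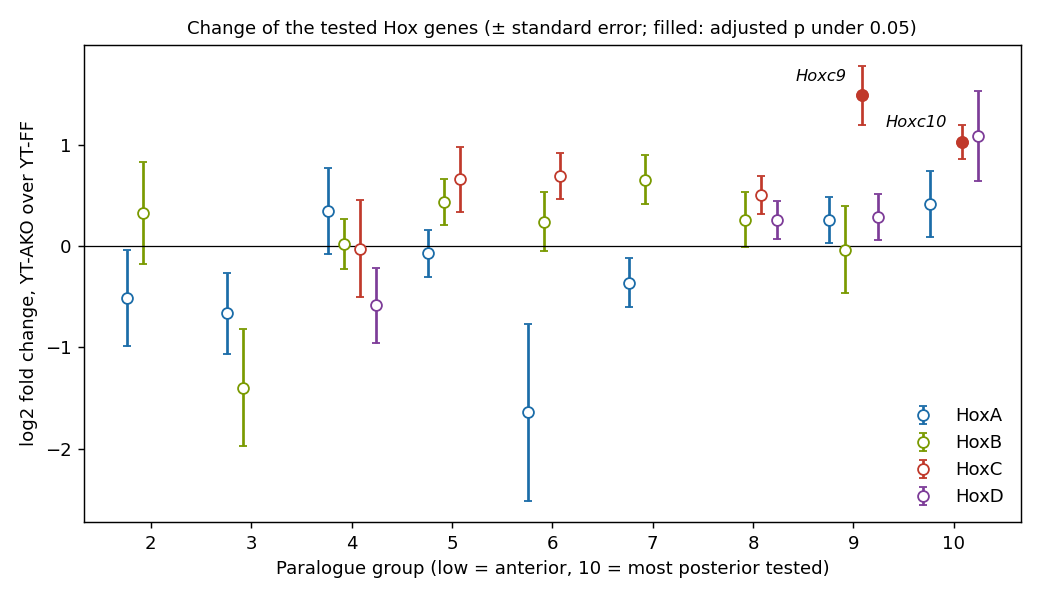
Log2 fold change of 26 of the 27 tested *Hox* genes, YT-AKO over YT-FF, by paralogue group and coloured by cluster, with standard errors from edgeR. Filled points are *Hoxc9* at 1.49 and *Hoxc10* at 1.03, the 2 genes with an adjusted p under 0.05, and open points missed that threshold.

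The other *HoxC* genes had smaller values that missed the threshold. *Hoxc6* had counts of 792, 678 and 531 in YT-FF and 664, 725 and 1107 in YT-AKO, which overlapped, while in CPM it was at 33.8, 29.8 and 27.3 against 38.6, 42.8 and 65.4, without overlap. Its log2 fold change was 0.69 (SE 0.225, edgeR adjusted p = 0.0610). *Hoxc8*, the most abundant member, had 57.0, 55.2 and 61.7 CPM in YT-FF and 63.0, 97.0 and 86.8 CPM in YT-AKO, and YT-AKO 1 was only just above the highest control. Its log2 fold change was 0.50 (SE 0.189, edgeR adjusted p = 0.0866). With library totals alone as scaling *Hoxc6* was at 0.37 and *Hoxc8* at 0.16. *Hoxc5* had a log2 fold change of 0.66 and *Hoxc4* of -0.03, and their groups overlapped in CPM.

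Among the highest genes of the other clusters none passed. *Hoxa7* had 387, 303 and 327 counts against 216, 149 and 253 (log2 fold change -0.36, SE 0.240, edgeR adjusted p = 0.284). *Hoxb6* had 252, 181 and 134 counts against 130, 230 and 155 (0.24, SE 0.289, edgeR adjusted p = 0.552). *Hoxd8* had 531, 395 and 316 counts against 421, 346 and 379 (0.26, SE 0.189, edgeR adjusted p = 0.333). The sign of the last pair was not fixed, since with library totals alone as scaling *Hoxb6* was at -0.12 and *Hoxd8* at -0.07.

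The paralogues of *Hoxc9* and *Hoxc10* did not pass either. *Hoxa9* had a log2 fold change of 0.26, *Hoxb9* of -0.04 and *Hoxd9* of 0.29, each with groups that overlapped in CPM. *Hoxa10*, whose deletion shifts vertebral identity, was at 0.42 and also overlapped. *Hoxd10* had counts of 20, 20 and 9 in YT-FF and 21, 34 and 25 in YT-AKO, with a log2 fold change of 1.09 (SE 0.445, edgeR adjusted p = 0.108) that is close to that of *Hoxc10* in size and has a wider error. The lowest values were in the anterior and middle part of *HoxA* and *HoxB*. *Hoxa6* had 29, 43 and 22 counts against 8, 0 and 15, with a log2 fold change of -1.64 (SE 0.870, edgeR adjusted p = 0.191). *Hoxb3* had 70, 36 and 23 counts against 11, 6 and 20 and a log2 fold change of -1.40 (SE 0.575, edgeR adjusted p = 0.109), with 52.9% of its exon bases shared with *Hoxb3os*. In both genes all YT-AKO counts were below all control counts.

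In CPM, 7 of the 27 tested *Hox* genes had YT-AKO libraries that were all above the controls, namely *Hoxb5*, *Hoxb7*, *Hoxc6*, *Hoxc8*, *Hoxc9*, *Hoxc10* and *Hoxd10*, against 25.7% of all tested genes. All of them lie in groups 5 to 10, which hold most of the tested *Hox* genes. In 2 of 27, *Hoxa6* and *Hoxb3*, all were below, against 25.8%. In TPM, a share of all transcripts of the library, 9 of 27 *Hox* genes were all below the controls, against 54.5% of all tested genes. The counts of genes below the controls were thus under the background on both scales.

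The log2 fold changes differed between clusters and by position in them. The median over all 27 genes was 0.26, where that of all tested genes was -0.02. With gene length corrected these medians were 0.03 and 0.08, so the *Hox* median was then not above that of all genes. The median of *HoxA* was -0.23 with 3 of 9 genes above 0, of *HoxB* 0.25 with 6 of 8, of *HoxC* 0.67 with 5 of 6 and of *HoxD* 0.27 with 3 of 4. *HoxA* (below 0) and *HoxC* (above 0) kept their sign with TMM, with library totals alone and with gene length corrected. With library totals alone the median of all genes moved to -0.34, and those of *HoxA*, *HoxB*, *HoxC* and *HoxD* were -0.57, -0.11, 0.36 and -0.06. With gene length corrected the medians of the 4 clusters were -0.46, 0.02, 0.54 and 0.08. By paralogue group the medians were -1.03 for group 3, 0.43 for group 5, 0.26 for group 8, 0.27 for group 9 and 1.03 for group 10. Spearman's rho of the log2 fold change with paralogue number was 0.546 over the 27 genes, 0.582 with gene length corrected, 0.515 without YT-AKO 2 and 0.482 over the 21 genes outside *HoxC*. Genes of a cluster share libraries and neighbours, so this is given as a description and no p is attached.

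The composition of the *Hox* code does not depend on the scaling of a library, since each gene is set against the other *Hox* genes of the same library. It was not corrected for the lower counts of long genes in YT-AKO libraries. The share of *HoxC* in the summed *Hox* level was 57.5%, 65.3% and 64.0% in YT-AKO 1, 2 and 3 (62.3% ± 4.22, SD, n = 3), above the 49.996% to 53.8% of the controls. Within *HoxC* only the shares of *Hoxc9* and *Hoxc10* were higher in every YT-AKO library. Those of *Hoxc4*, *Hoxc5*, *Hoxc6* and *Hoxc8* overlapped with the controls, so a shift of the whole cluster is not shown. The share of *HoxA* was 16.8%, 10.4% and 16.1% (14.4% ± 3.51), below the controls at 20.9% to 21.9%. *HoxB* was at 13.7% ± 1.61 and also below the controls in every library, and *HoxD*, at 9.61% ± 1.66, overlapped with them. Without the genes that share over 10% of their exon bases, *HoxC* was again higher (62.1%, 67.9% and 68.7% against 55.9%, 57.3% and 59.9%) and *HoxA* lower (10.9%, 7.52% and 10.97% against 14.5%, 14.8% and 13.3%) in every YT-AKO library. The summed level itself, at 353.4, 266.0 and 478.9 TPM, overlapped with that of the controls.

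Groups 9 and 10 were the paralogue groups whose share was higher in every YT-AKO library. Group 9 held 14.6%, 21.4% and 15.97%, against 14.02%, 11.6% and 13.0% in YT-FF, and group 10 held 18.1%, 13.8% and 16.9%, against 10.9%, 12.7% and 13.2%. The shares of groups 2, 3, 4 and 7 were lower in every YT-AKO library, and those of groups 5, 6 and 8 overlapped. *Hoxc9* alone held 6.02%, 5.12% and 6.06% in YT-FF and 8.25%, 15.2% and 10.3% in YT-AKO. *Hoxc10* held 7.66%, 9.18% and 9.98% and then 14.6%, 11.4% and 12.8%. The shares of *Hoxa9*, *Hoxb9*, *Hoxd9* and *Hoxa10* overlapped between the groups, and their means were lower in YT-AKO. *Hoxd10* held 0.374% ± 0.111 and then 0.573% ± 0.138, without overlap. The higher shares of groups 9 and 10 thus lay mainly in *Hoxc9* and *Hoxc10*. *Hoxc8* held 19.2% ± 1.90 in YT-FF and 19.2% ± 2.93 in YT-AKO. The share of *Hoxa7* was 5.06% ± 0.658 in YT-FF and 2.80% ± 0.727 in YT-AKO, without overlap. Shares add up to a fixed sum, so a higher share of some genes lowers that of others, and they were described without a test.

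**Figure D3:**
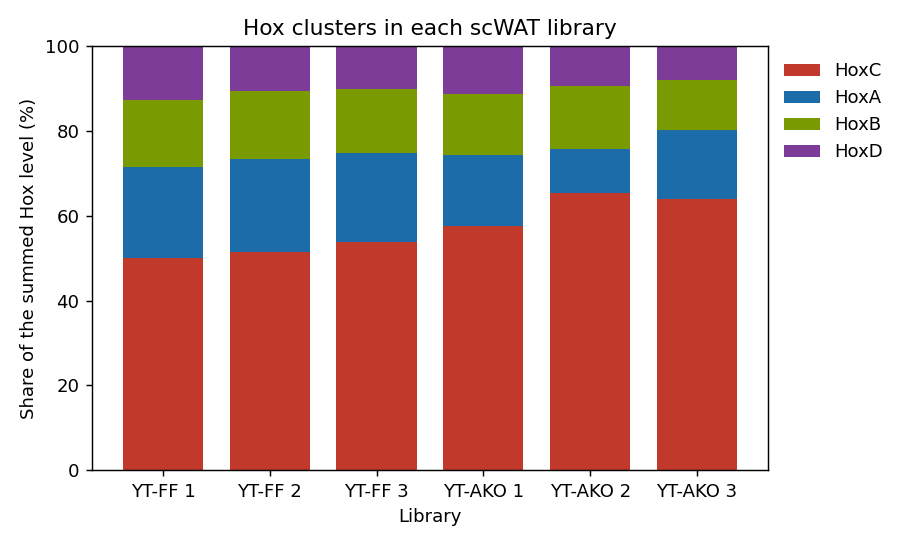
Share of each *Hox* cluster in the summed *Hox* level, in percent of TPM, with 1 bar per library. *HoxC* takes 49.996% to 53.8% of the 3 YT-FF bars and 57.5% to 65.3% of the 3 YT-AKO bars, and *HoxA* 20.9% to 21.9% and 10.4% to 16.8%.

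Ratios within a library were used to set *Hoxc9* and *Hoxc10* against their neighbours and paralogues without any scaling. They were not corrected for the lower counts of long genes in YT-AKO libraries. Counts per kilobase of *Hoxc9* were 0.341, 0.276 and 0.284 of those of *Hoxc8* in YT-FF and 0.470, 0.673 and 0.593 in YT-AKO. For *Hoxc10* the ratio to *Hoxc8* was 0.434, 0.494 and 0.468 and then 0.830, 0.506 and 0.735, with YT-AKO 2 close to the highest control. *Hoxc6* to *Hoxc8* overlapped, at 0.696, 0.635 and 0.521 against 0.721, 0.519 and 0.886. The order *Hoxc8*, *Hoxc6*, *Hoxc10* was that of the mean levels in both genotypes, while *Hoxc9* was the fifth gene in YT-FF and the fourth in YT-AKO.

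**Figure D4:**
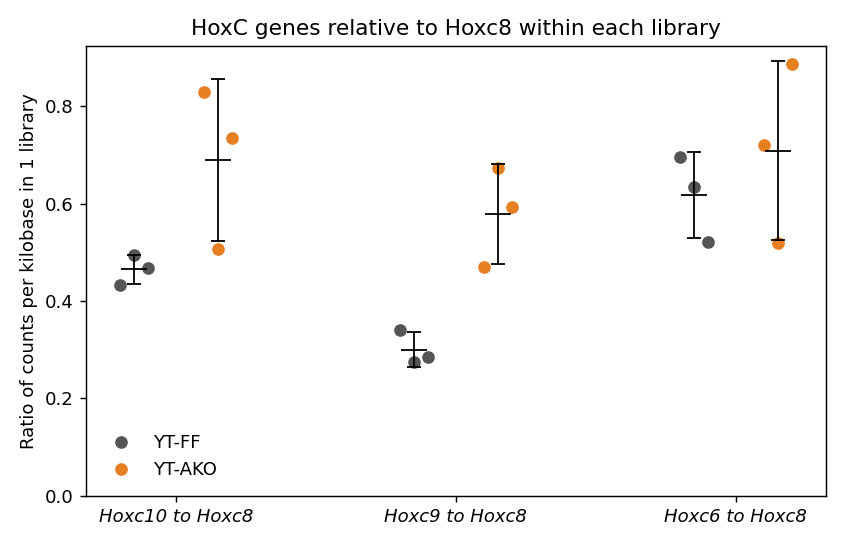
Ratio of the counts per kilobase of *Hoxc10*, *Hoxc9* and *Hoxc6* to those of *Hoxc8* within each library, with the mean and SD of 3 libraries per genotype. All YT-AKO points lie above all YT-FF points for *Hoxc9* and *Hoxc10*, the nearest pair being 0.506 and 0.494 for *Hoxc10*, and the points of *Hoxc6* overlap.

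Against their paralogues, *Hoxc9* to *Hoxa9* was 1.69, 1.77 and 1.79 in YT-FF and 3.27, 5.57 and 3.45 in YT-AKO. *Hoxc9* to *Hoxd9* was 1.51, 1.67 and 1.89 against 2.45, 4.58 and 4.35, and *Hoxc10* to *Hoxa10* 2.67, 3.01 and 3.34 against 4.78, 6.96 and 3.54. *Hoxc10* to *Hoxd10* overlapped between the groups. The exons of *Hoxa9* hold 5580 bases and those of *Hoxc9* 2430. With gene length corrected the log2 fold changes of *Hoxc9* and *Hoxa9* were 1.29 and 0.46, where the main fit had 1.49 and 0.26. Those of *Hoxc10*, *Hoxa10* and *Hoxc8* were 0.74, 0.37 and 0.39, against 1.03, 0.42 and 0.50. *Hoxc9* and *Hoxd9* lay no closer, at 1.29 and 0.03 against 1.49 and 0.29. The summed *HoxA* level relative to the *HoxC* genes other than *Hoxc9* and *Hoxc10*, a ratio chosen after the values were seen, was 0.588, 0.591 and 0.555 in YT-FF and 0.485, 0.269 and 0.393 in YT-AKO. All YT-AKO values of this ratio were below all control values. Each of the 6 ratios without overlap had an exact two-sided permutation p of 0.1, the smallest that 3 against 3 libraries allow, and an adjusted p of 0.133 over the 8 ratios. No ratio can therefore pass 0.05 in this design.

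The cofactors that bind DNA together with HOX proteins were not called. Of the 9 genes of the PBX, MEIS and PKNOX families, all were tested and 0 passed in either direction in edgeR, DESeq2 or limma-voom, with a median log2 fold change of -0.20. At an unadjusted p under 0.05 the 3 tools had 1, 1 and 2 of the 9. The edgeR shares over all tested genes were 12.6% called higher and 9.01% lower, and 22.2% and 18.6% at the unadjusted threshold. *Meis2* was at -0.52 (edgeR adjusted p = 0.148) and *Meis3* at 0.44 (edgeR adjusted p = 0.249). With gene length corrected *Meis2* was at -0.03.

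Trithorax-group genes, whose products keep *Hox* clusters active, were mostly lower. Of 13 tested, 7 were called lower and 1, the core subunit gene *Dpy30*, higher (log2 fold change 1.06, edgeR adjusted p = 0.0246). The 7 were the histone H3K4 methyltransferase genes *Kmt2a* (-1.50), *Kmt2d* (-1.39), *Kmt2c* (-1.17) and *Kmt2b* (-0.67), the H3K36 methyltransferase gene *Ash1l* (-1.26), the H3K27 demethylase gene *Kdm6a* (-0.99) and *Psip1* (-0.57), whose product tethers MLL to chromatin. *Kmt2a* encodes MLL1, a direct activator of *Hox* genes, and had counts of 4931, 4161 and 2245 in YT-FF and 1246, 683 and 1134 in YT-AKO. These are long transcripts, with a median exon length of 8383 bases for the list against 3888 for all tested genes. With gene length corrected 3 remained lower, *Ash1l* (-0.69), *Kmt2a* (-0.91) and *Kdm6a* (-0.63), and 0 higher. Over all 16807 tested genes that fit called 659 lower and 1608 higher.

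Of 28 Polycomb genes 5 were called lower, namely *Phc3* (-0.82), *Cbx7* (-0.69), *Mtf2* (-0.74), *Jarid2* (-0.85) and *Pcgf6* (-0.62), and *Phc2*, a subunit of the canonical Polycomb repressive complex 1, higher (0.63, edgeR adjusted p = 0.0290). None of the 5 was called with gene length corrected, and *Phc2* was (0.95, edgeR adjusted p = 0.0278). The methyltransferase gene *Ezh2* was at -0.24 and *Ezh1* at -0.38, both without a call. These counts of 7 of 13 and 5 of 28 stand beside 9.01% called lower among all tested genes.

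Of 11 tested genes that feed into *Hox* induction in the embryo, such as retinoic acid receptors and enzymes, *Rxrb* was called higher (0.53, edgeR adjusted p = 0.0481), where 12.6% of all tested genes were, and 0 lower. With gene length corrected its adjusted p was 0.0542 (edgeR) and no gene of the list was called. The next by p were *Rxrg* at 0.90 (edgeR adjusted p = 0.0506) and *Gdf11*, a ligand that posteriorises the axis, at -0.46 (edgeR adjusted p = 0.206). *Cdx1*, *Cdx2* and *Cdx4*, direct *Hox* activators of the embryo, had 0 counts in all libraries. Among noncoding genes inside the clusters 5 were tested and 0 called by edgeR, with 1 at an unadjusted p under 0.05, 0 by limma-voom and 1, *Hotairm1*, by DESeq2. By edgeR 12.6% of all tested genes were called higher and 9.01% lower, and 22.2% and 18.6% at the unadjusted threshold. *Hotairm1*, of the *HoxA* cluster, had 85, 43 and 61 counts against 76, 177 and 109 (1.30, edgeR adjusted p = 0.0526), *Hoxaas2* was at -1.83 (edgeR adjusted p = 0.207) and *Hoxaas3* at -0.68 (edgeR adjusted p = 0.334). *Hotair*, of the *HoxC* cluster, had at most 1 count and *Hottip*, at the posterior end of *HoxA*, at most 5. The counting did not use strand and left out fragments that overlapped more than 1 gene. Stretches that a *Hox* gene shares with an antisense partner were therefore counted for neither gene.

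Other transcription factor genes that mark the position of a fat depot were checked against the label of subcutaneous fat. *Tbx15*, high in subcutaneous fat, had 345 to 455 counts in every library, and *Wt1*, a marker of visceral fat, had 0 counts in YT-FF and at most 2 in YT-AKO. *Tcf21* had at most 2 counts and *Zic1*, of the brown depot, 0 in all 6 libraries. *Zic1* was the only 1 of the 9 brown depot markers at 0. The other 8 had enough counts to be tested, such as *Lhx8* with 41 to 147 and *Ebf3* with 806 to 1384. Among the position genes *Gata6* had 89 to 264 counts, *Nr2f1* 102 to 197 and *Tbx5* 26 to 166, so not all of those other than *Tbx15* were near 0. Of 22 tested genes of this list 2 were called higher, *Irx3* (1.01, edgeR adjusted p = 0.0456) and *Prrx2* (1.19, edgeR adjusted p = 0.0404), and 0 lower, against 12.6% and 9.01% of all tested genes, with a median log2 fold change of 0.38. With gene length corrected neither was called (edgeR adjusted p = 0.0750 and 0.0984), and *Prrx1* was (0.88, edgeR adjusted p = 0.0229). *Tbx15* was at 0.45 (edgeR adjusted p = 0.0890).

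Markers of the cell types in the depot moved between the same libraries, and their part in the *Hox* values was not tested. The calls given for them stand beside 12.6% of all tested genes called higher and 9.01% called lower. The 12 adipocyte markers summed to 18475 to 23855 CPM in YT-FF and 38508 to 82712 CPM in YT-AKO, the highest in YT-AKO 2, with 3 called higher (*Cfd*, *Fabp4*, *Lipe*) and a median log2 fold change of 0.38. *Cfd* and *Fabp4* made up most of the rise in the sum, and without them the groups overlapped, at 8761 to 11315 CPM and 10645 to 13976 CPM. The 20 fibroblast and progenitor markers, of cells that also transcribe *Hox* genes, summed to 11538 to 13408 CPM and then 20691 to 26707 CPM, with 5 called higher (*Gsn*, *Lum*, *Pi16*, *Ly6a*, *Mfap5*), 1 lower (*Dpp4*) and a median log2 fold change of 0.40. Without *Gsn* the groups overlapped, at 5515 to 6871 CPM and 6461 to 9959 CPM, since YT-AKO 2 lay within the control range. The 9 macrophage markers summed to 1252 to 1432 CPM and then 1850 to 2514 CPM, with 2 called higher. The 8 B cell markers summed to 1332 to 1603 CPM and then 765.2 to 1079 CPM, with 5 called lower. Endothelial, T cell, epithelial and Schwann cell markers had 0 called higher and 1, 1, 1 and 0 called lower, the brown depot markers 1 higher and the skeletal muscle markers 1 higher, with a sum of 3000 CPM in YT-AKO 1 and 209.4 to 469.0 CPM in the other YT-AKO libraries. Of the markers, *Zic1* and 2 epithelial genes, *Krt5* and *Wap*, were at 0 in all libraries.

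The promoters of the *Hox* genes were searched for the letters GGAATG on both strands, the core motif of the TEAD factors through which YAP and TAZ act. The 22 *Hox* genes in the RefSeq promoter table (GRCm38.p6) had 24 windows of 300 bases around the transcript start, of which 2 (8.33%), those of *Hoxa9* and *Hoxd10*, held the letters. Of all 32851 windows 14.7% did. *Hoxc9* and *Hoxc10* were not among the 22.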

How the data were processed

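RNA-seq libraries of scWAT, 3 of each genotype, were grouped as labelled. Per the labels and file headers, the authors mapped paired-end reads to mm10 with HISAT2 and used featureCounts 2.0.1 with GENCODE vM25, and the authors deposited unnormalized gene counts, made without strand and without multi-mapping or multi-overlapping fragments. Symbols were matched for 55141 of 55401 genes, and 260 were not matched. Counts were tested in R 4.3.3 with edgeR 4.0.16 (TMM, filterByExpr with a minimum count of 10 and a minimum total of 15, quasi-likelihood test, Benjamini-Hochberg adjustment over 16807 genes), after a test on simulated data. The biological coefficient of variation was 0.288. DESeq2 1.42.0, limma 3.58.1 (voom), other scalings and filters, a robust fit, a replicate block, a length correction (spline, 6 degrees of freedom) and each library left out were alternatives. Ratios used exact permutation tests (scipy 1.17.1). Floors of 3 counts allow for counting error alone, as no molecular identifiers were used, and p-values measure the spread between 3 mice per group.

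*Hox* genes were named by symbol, with full statistics for those with an adjusted p under 0.05, the 5 highest in YT-FF and the highest of each cluster. A few genes and sequences are not reported here. Of the cofactor and regulator lists, called genes and the 3 with the smallest p were named. *Ezh1*, *Ezh2*, the *Cdx* genes, *Hotair*, *Hottip* and the depot genes without a call were chosen after their values were seen. The members and lists were chosen with earlier results of these data known. Homeoboxes were read from GENCODE vM21 on the same build.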

Additional observations from a re-analysis of the deposited data

How the results depend on the processing

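*Hoxc9* and *Hoxc10* were above 0 in each of the 17 alternative fits. The count of 2 *Hox* genes called higher was 0 with the replicate number as a block and 0 with the block and the length correction together, and it ran from 0 to 4 over the fits that left out 1 library. With the block 24 genes in all were called higher and 9 lower, and the adjusted p was 0.0618 for *Hoxc9* and 0.0584 for *Hoxc10* (edgeR). Whether the numbers pair the mice is not known from the labels. Deviations of same-numbered libraries correlated at 0.126, -0.118 and -0.0893, and those of differently numbered libraries at -0.140 to 0.160. With so few libraries these correlations cannot decide it. The adjusted p of *Hoxc9* and *Hoxc10* was 0.110 and 0.110 without YT-FF 1 and 0.116 and 0.111 without YT-FF 2. The count of *Hox* genes called lower was 0 in every fit. DESeq2 and the fit with no filter also called *Hoxc6*, with adjusted p of 0.0401 and 0.0436. The log2 fold change of *Hoxb6* turned to -0.12 with library totals alone, -0.0592 with the length correction, -0.0605 with that and the block, -0.0333 without YT-AKO 2 (0.439 without YT-FF 1) and -0.25 with the length correction without YT-AKO 2, the last a fit chosen after seeing the data. That of *Hoxd8* turned to -0.0653 with library totals alone. The causes were not tested. In YT-FF the share of *HoxA* was 24.998% and that of *HoxB* 13.7% in CPM without division by length. Without *Hox* genes that share over 10% of their exon bases the shares of *HoxA*, *HoxB* and *HoxC* were 14.2%, 16.8% and 57.7%, from fewer genes in the sum. Leaving out 1 library kept the log2 ratio of *Hoxc9* to *Hoxc8*, YT-AKO over YT-FF, between 0.82 and 1.08, and that of *Hoxc10* to *Hoxc8* between 0.39 and 0.75. At this depth the 12 *Hox* genes with few or no counts could not be compared.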
